A study of Homo sapiens with 72 samples.

Results

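The long noncoding RNAs described here are MALAT1 (ENSG00000251562), NEAT1 (ENSG00000245532), KCNQ1OT1 (ENSG00000269821) and TUG1 (ENSG00000253352), which are known as mainly nuclear, and NORAD (ENSG00000260032) and OIP5-AS1 (ENSG00000247556), known as mainly cytoplasmic. They were chosen by gene symbol, 6 of the 61541 genes listed in each of 11 comparison tables, and all 6 passed the filter on low values and had an adjusted p-value in every table.

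G3BP1 is an RNA-binding protein that nucleates stress granules, the cytoplasmic bodies of untranslated messenger RNA and protein that form under stress such as arsenite. Its NTF2 domain mediates dimerisation and contacts with partner proteins, and G3BP2 is its close paralog. Of the series' 72 libraries, 24 in 11 groups were used. In RNA immunoprecipitation with sequencing (RIP-seq), 3 immunoprecipitate (IP) and 3 input libraries came from FlpIn 293 Trex cells, a human embryonic kidney line, in which a stable FLAG-G3BP1 transgene was induced with tetracycline at 1 ug/mL for 24 h. RNA-seq came from U2OS, an osteosarcoma line, with 2 libraries per group. The first experiment compared wild-type cells, cells lacking G3BP1 and G3BP2, and knockout cells 24 h after transfection of G3BP1. The second held knockout cells that were not transfected, knockout cells given wild-type G3BP1 and knockout cells given G3BP1 without its NTF2 domain (24 h after transfection), each group with and without sodium arsenite at 200 uM for 2 h. Every group of the second experiment therefore carried the knockout, and transfection was present in the rescues only, so its effect and that of the G3BP1 protein cannot be told apart. The labels do not say whether the libraries of a group came from separate cultures. The p-values rest only on the spread between libraries, which is in part pooled over genes.

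The targeted genes were checked first. In the authors' deposited tables the log2 change of G3BP1 RNA was -0.56 (SE 0.05) in knockout over wild-type cells and 7.31 (SE 0.04) in the wild-type rescue over knockout cells of the second experiment, while G3BP2 was at -0.36 (SE 0.06) in knockout over wild type. Assigned gene reads, recovered per library, ranged from 37693112 to 51224005 per library of the first experiment, and from 10790035 to 26357440 per library of the second. Osteosarcoma markers COL1A1 and SPARC had base means (normalised reads averaged over the libraries of a table) of 87411 and 68055 in the authors' deposited table of knockout against wild-type cells, while TWIST1 was at 0 and COL1A2 at 17.5. In the authors' deposited RIP table the kidney-line markers INA and NEFL stood at 747 and 1078, although NEFL also reached 3823 in the U2OS table, and PAX2 was at 45.8. NEFM was at only 4.87 in RIP, and PAX2 was at 146 in the U2OS table. Of the osteosarcoma markers, TWIST1 stood at 210 in the RIP table, RUNX2 at 69.0, SPARC at 32.0, COL1A1 at 26.4 and COL1A2 at 0.

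Long noncoding RNAs act in the compartment where they reside. MALAT1 localises to nuclear speckles, NEAT1 is the scaffold of paraspeckles, KCNQ1OT1 is an antisense transcript that silences imprinted genes around KCNQ1 in cis, and TUG1, which RefSeq lists as protein coding, is found in the nucleus and outside it. NORAD binds and sequesters RNA-binding proteins that repress messenger RNAs, among them PUM2, and OIP5-AS1 (also called Cyrano) directs the decay of a microRNA. Mature MALAT1 and the long NEAT1 isoform end in a triple helix rather than a poly-A tail, and the libraries were selected for poly-A, so the reads may represent a part of these RNAs; that part was not measured here.

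Promoter sequences are shown for MALAT1, OIP5-AS1 and NORAD, the members with a promoter window whose reads differed with arsenite in knockout cells by at least 1 of the tests used, since arsenite is a classical inducer of heat shock and antioxidant genes. Each window runs from 250 bases before to 50 bases after the annotated start, 5′ to 3′ on the gene's strand, from RefSeq for GRCh38.p14, which may not be the build behind the files. Of the 6 members, 4 matched the promoter table. Capitals mark matches to the antioxidant response element TGACNNNGC on either strand; a heat shock element GAANNTTC and a cyclic AMP response element TGACGTCA were searched likewise.
MALAT1, chr11:65497488-65497787, plus strand: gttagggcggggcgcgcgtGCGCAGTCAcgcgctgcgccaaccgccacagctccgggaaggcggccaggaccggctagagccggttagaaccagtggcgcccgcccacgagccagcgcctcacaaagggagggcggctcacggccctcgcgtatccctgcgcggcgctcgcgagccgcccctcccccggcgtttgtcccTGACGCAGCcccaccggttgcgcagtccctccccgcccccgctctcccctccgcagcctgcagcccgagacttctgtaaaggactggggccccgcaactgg
NORAD, chr20:36050911-36051210, minus strand: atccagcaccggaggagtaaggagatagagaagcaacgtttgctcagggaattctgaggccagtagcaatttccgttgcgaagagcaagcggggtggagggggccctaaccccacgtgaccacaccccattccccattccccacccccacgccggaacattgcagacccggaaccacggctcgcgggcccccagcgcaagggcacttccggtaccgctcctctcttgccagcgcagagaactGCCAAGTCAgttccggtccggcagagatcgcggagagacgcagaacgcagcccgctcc
OIP5-AS1, chr15:41283740-41284039, plus strand: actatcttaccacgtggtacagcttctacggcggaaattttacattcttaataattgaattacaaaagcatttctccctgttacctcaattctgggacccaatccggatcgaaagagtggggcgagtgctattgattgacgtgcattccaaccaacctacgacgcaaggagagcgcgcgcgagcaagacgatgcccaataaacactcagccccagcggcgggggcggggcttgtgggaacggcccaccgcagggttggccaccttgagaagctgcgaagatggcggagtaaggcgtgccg

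The MALAT1 window held 2 antioxidant matches and the NORAD window 1, while those of OIP5-AS1, TUG1 and a second annotated MALAT1 start held no match to any of the 3 motifs. Over all 35116 promoter windows of 300 bases, 13.3% held an antioxidant match, 6.77% a heat shock match and 1.85% a cyclic AMP match. A match is a description of letters and says nothing of whether a factor binds there.

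All 6 RNAs were lower in the G3BP1 immunoprecipitate than in input, and the 4 nuclear ones by far more than the 2 cytoplasmic ones. Per-library reads could not be worked out for RIP-seq, so the group means below were computed from the base mean and the fold change after undoing the shrinkage toward 0 that the deposited values carry. KCNQ1OT1 stood at about 9.80 normalised reads in IP against 821 in input. MALAT1 stood at 839 against 9866, NEAT1 at 348 against 1881 and TUG1 at 446 against 2376. For the cytoplasmic RNAs the IP and input means were much closer, with NORAD at 2825 against 4001 and OIP5-AS1 at 646 against 1418.

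On the log2 scale, the authors' deposited table gave -6.27 for KCNQ1OT1 (SE 0.28, adjusted p 1.02e-108 by the authors' Wald test), which was the lowest of the 10295 genes whose base mean was 100 or more. In the authors' deposited table MALAT1 was at -3.23 (SE 0.60, adjusted p 2.13e-07), TUG1 at -2.40 (SE 0.17, adjusted p 3.35e-42) and NEAT1 at -2.35 (SE 0.38, adjusted p 2.52e-09). OIP5-AS1 followed at -1.13 (SE 0.17, adjusted p 1.01e-10) and NORAD at -0.50 (SE 0.12, adjusted p 9.63e-05) according to the authors' deposited table. The 95% intervals of the nuclear RNAs all lay below those of the cytoplasmic RNAs, the nearest bounds being -1.60 for NEAT1 and -1.46 for OIP5-AS1. Of all 22856 genes tested in RIP, 31.4% were called lower at an adjusted p under 0.05, so a call alone is common. The members' median was -2.37, and that of all tested genes -0.26. Even NORAD, the least depleted member, lay above only 44.5% of tested genes. Genes whose base mean was 100 or more had a median of 0.12, and 3601 of these 10295 lay below NORAD.

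**Figure D1:**
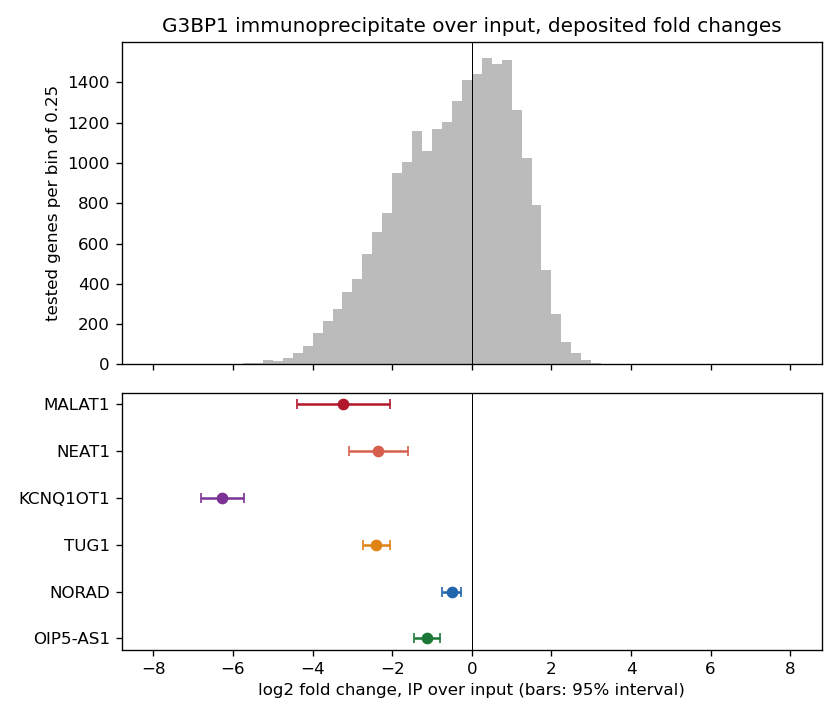
Top, number of tested genes per bin of log2 fold change (IP over input, horizontal axis) in the authors' deposited RIP table; bottom, the 6 RNAs with 95% intervals. KCNQ1OT1 at -6.27 lies at the far left edge of the distribution, MALAT1, TUG1 and NEAT1 lie between -3.23 and -2.35, and NORAD lies near its middle at -0.50.

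The precision of these values differed. The SE of MALAT1 was 4.03 times, that of NEAT1 2.57 times and that of KCNQ1OT1 1.89 times the median SE of genes whose base mean was 100 or more, while NORAD was at 0.818 times. MALAT1 and NEAT1, the RNAs of nuclear bodies, thus had the widest errors of the set. Reads that fell in no annotated feature were also lower in IP, by a log2 change of -3.33 (SE 0.14) according to the authors' deposited table, and their part in the members' change was not tested.

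Fold changes in RIP fell with the annotated span of a gene, which includes introns. With the 80.8% of tested genes that had a span put into 10 classes of equal size, the median log2 change was 0.57 for spans from 1542 to 4482 bases and -1.11 for the longest spans, with -0.80 for the shortest. The members' spans were 5343 bases for NORAD, 8779 for MALAT1, 10131 for TUG1, 22743 for NEAT1, 30642 for OIP5-AS1 and 91667 for KCNQ1OT1. Minus the median of its own span class, the log2 change was -5.54 for KCNQ1OT1, -3.75 for MALAT1, -2.81 for TUG1, -2.60 for NEAT1, -1.20 for OIP5-AS1 and -1.03 for NORAD. The nuclear RNAs still lay below the cytoplasmic ones, and NORAD and OIP5-AS1 lay closer to each other than before. Of the 1847 genes in the span class of each, 0 lay below KCNQ1OT1, 33 below MALAT1 and 439 below NORAD.

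**Figure D2:**
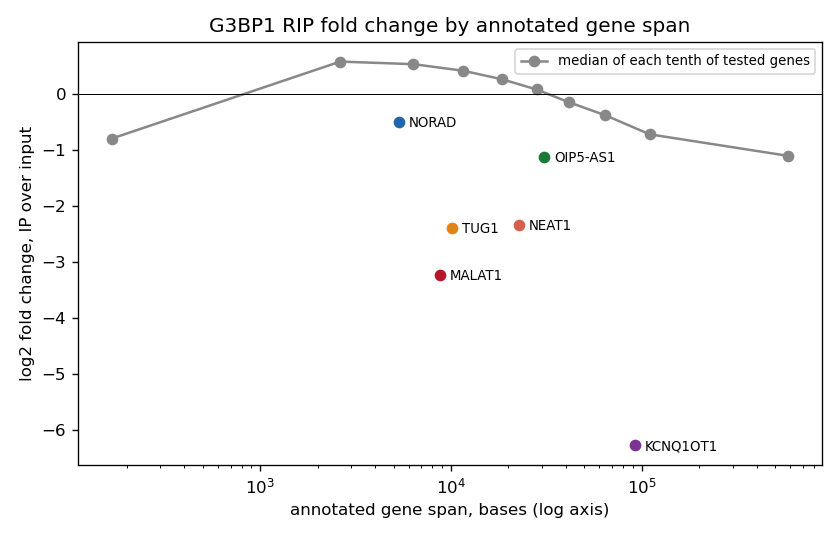
Log2 fold change in RIP (vertical axis) against annotated gene span in bases (horizontal log axis); grey points are medians of the 10 span classes of tested genes, coloured points the 6 RNAs. Every member lies below the median of its span class, NORAD least, at -1.03 from it, and KCNQ1OT1 most, at -5.54.

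Other noncoding RNAs, from lists chosen with earlier results of these data known, are given for comparison. Among 8 tested of 11 other nuclear RNAs, 6 were called lower in the authors' deposited RIP table and 1 higher, with a median of -1.99. FTX, an RNA of the X-inactivation region, was lowest of them at -3.49, MIAT was at -3.04 with a base mean of only 15.9, and HOTAIR was higher at 0.77 in the authors' deposited table. Among 7 other cytoplasmic RNAs, 3 were called higher and 3 lower in the authors' deposited RIP table, with a median of 0.30. They ranged from 2.19 for DANCR, a snoRNA host, to -1.56 for CYTOR. Of all tested genes 24.7% were called higher and 31.4% lower there. Among neighbouring genes, OIP5, for which OIP5-AS1 is named as antisense, was at 1.37 and MORC2, beside TUG1, at -2.35 in the authors' deposited table. Whether the read counting used the strand is not given in the sources used here, so reads of OIP5-AS1 and OIP5, and of KCNQ1OT1 and KCNQ1, may not be separable. KCNQ1 itself had a base mean of 16.0 in the authors' deposited RIP table, against 416 for KCNQ1OT1.

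TUG1 and NORAD were lower in cells lacking G3BP1 and G3BP2 than in wild-type cells, and the other members did not pass the threshold in the authors' test. TUG1 had 11376 and 11296 normalised reads in the wild-type libraries and 8556 and 8573 in the knockout libraries. The groups did not overlap and the libraries within a group were nearly equal. Its log2 change in the authors' deposited table was -0.41 (SE 0.05, adjusted p 1.72e-15). NORAD had 10646 and 10613 reads in wild-type and 8415 and 8011 in knockout libraries, again without overlap, and its log2 change was -0.37 (SE 0.05, adjusted p 7.13e-12) according to the authors' deposited table. So 2 of 6 members were called lower and 0 higher, where 19.4% of all tested genes were called lower and 18.4% higher.

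MALAT1 ran the other way with wide spread. Its normalised reads were 73630 and 89177 in wild-type and 100755 and 127321 in knockout libraries, so the groups did not overlap, although the libraries within each group were far apart. In the authors' deposited table the log2 change was 0.46 (SE 0.20, adjusted p 0.0587). OIP5-AS1 had 6358 and 6713 reads in wild-type and 7106 and 7207 in knockout libraries, and its log2 change in the authors' deposited table was 0.13 (SE 0.06, adjusted p 0.0647). NEAT1, with 22225 and 28044 reads in wild type against 18696 and 23784 in knockout, and KCNQ1OT1, with 1723 and 1616 against 1478 and 1693, overlapped between groups. A limma fit on the recovered reads, added after the data were seen, called 5 of the 6, where it called 58.5% of all genes tested, with MALAT1 at 0.48 (adjusted p 9.22e-05), OIP5-AS1 at 0.13 (adjusted p 0.0213) and NEAT1 at -0.24 (adjusted p 0.0209). When 1 library was left out, OIP5-AS1 kept its limma call only without the shallower wild-type library (adjusted p 0.0136), and was at an adjusted p of 0.0578 without the deeper knockout, 0.104 without the shallower knockout and 0.178 without the deeper wild-type library. MALAT1 kept its call in these 4 fits and ranged from 0.31, without the shallower knockout library, to 0.65, without the deeper one, with adjusted p by limma up to 0.0114. The NEAT1 value ranged from -0.42 to -0.07, with adjusted p by limma from 0.000195 to 0.542, and lost its call without the deeper knockout or the shallower wild-type library.

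**Figure D3:**
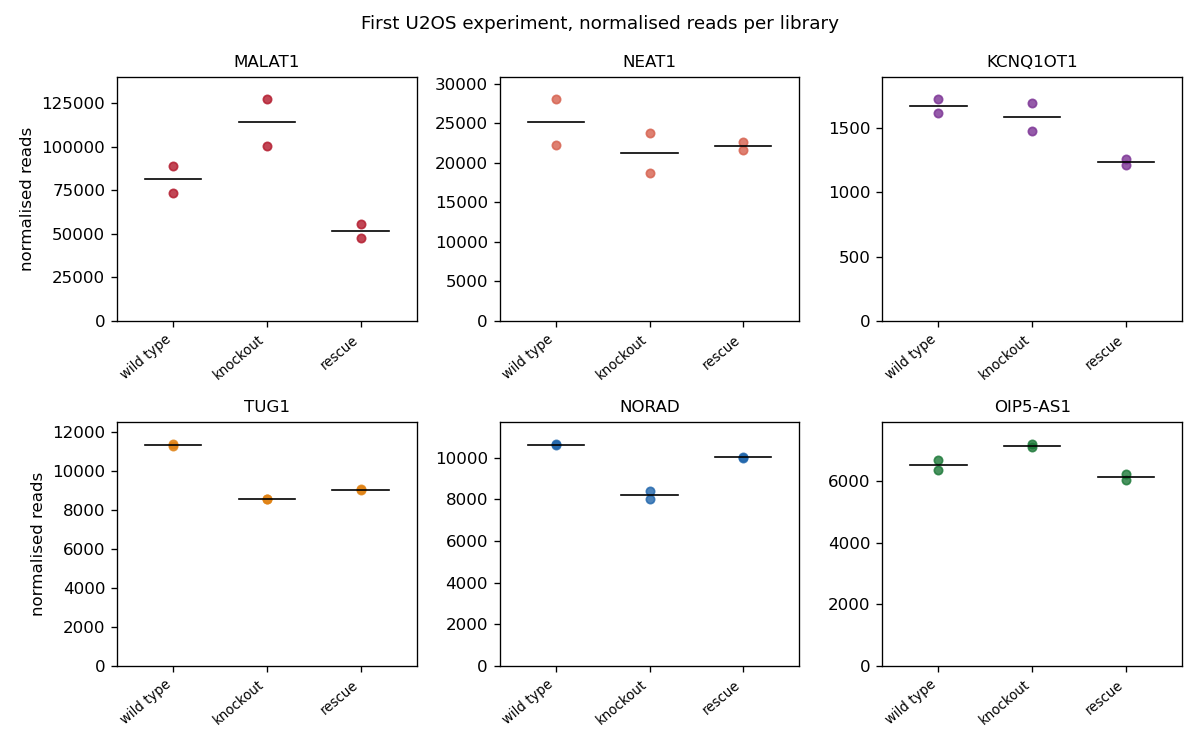
Normalised reads (vertical axes from 0, own scale per RNA) in the 2 libraries of each group of the first experiment; bars are group means. TUG1 and NORAD are lowest in knockout cells, MALAT1 is highest there, and the NEAT1 groups overlap.

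In the first experiment MALAT1, KCNQ1OT1 and OIP5-AS1 were lower, and NORAD higher, in knockout cells given G3BP1 than in knockout cells. The rescued libraries held 47727 and 55649 normalised reads of MALAT1, below every knockout and wild-type library. In the authors' deposited tables its log2 change was 1.03 (SE 0.18, adjusted p 1.10e-07) for knockout over rescue and 0.58 (SE 0.16, adjusted p 0.00158) for wild type over rescue. KCNQ1OT1 stood at 1211 and 1263 reads in the rescue, with log2 changes of 0.34 (SE 0.09, adjusted p 0.00147) for knockout over rescue and 0.40 (SE 0.09, adjusted p 2.44e-05) for wild type over rescue in the authors' deposited tables. Both RNAs were thus lower in rescued cells than in either other group, while knockout and wild type were not told apart by the authors' test.

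NORAD was at 10058 and 10000 reads in the rescue, near its wild-type level. Its log2 change for knockout over rescue was -0.30 (SE 0.05, adjusted p 3.37e-09) according to the authors' deposited table, and that for wild type over rescue 0.06 (95% interval -0.03 to 0.15). TUG1 at 9013 and 9070 reads in the rescue stayed below wild type by a log2 change of 0.30 (SE 0.04, adjusted p 1.73e-10), and its change for knockout over rescue was -0.09 (95% interval -0.18 to -0.0004, adjusted p 0.114) according to the authors' deposited tables. OIP5-AS1 was at 6233 and 6034 reads in the rescue and 0.21 (SE 0.05, adjusted p 1.63e-04) for knockout over rescue in the authors' deposited table. NEAT1, at 21648 and 22642 reads, was called in neither comparison with the rescue. Of the 6, 3 were called higher and 1 lower for knockout over rescue, beside 16.1% and 21.5% of tested genes, and 3 were called higher for wild type over rescue, beside 15.2%, in the authors' deposited tables. The 3 comparisons share libraries and are not independent.

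Cell markers and unassigned reads moved with these groups. The summed level of the 5 osteosarcoma markers, among which TWIST1 was at 0 in every library, was 224165 to 235684 normalised reads in wild-type, 87288 to 93206 in knockout and 118275 to 124407 in rescued libraries. COL1A1 and SPARC make up most of that sum and did not move alike. For knockout over wild type COL1A1 was at -2.73, RUNX2 at -1.38 and SPARC at -0.14 in the authors' deposited table. For knockout over rescue COL1A1 was at -1.64 and RUNX2 at -0.79, while SPARC was at 0.47, in the authors' deposited table. COL1A2 was called in neither. Markers of blood, endothelial and epithelial cells (PTPRC, PECAM1 and EPCAM) summed to 513 to 595, 416 to 425 and 358 to 406, none at 0. EPCAM made up most of that sum. Base means were 453 for EPCAM, 21.3 for PTPRC and 1.51 for PECAM1 in the authors' deposited table of knockout against wild-type cells. Reads in no annotated feature differed by log2 changes of 0.21 (knockout over wild type), 0.48 (knockout over rescue) and 0.26 (wild type over rescue) according to the authors' deposited tables. The part of these shifts in the members' changes was not tested, and in such bulk samples fewer cells of a type and less RNA per cell cannot be told apart.

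In the second experiment, 5 of the 6 members were lower in both rescues than in untreated knockout cells. OIP5-AS1 fell most. It had 1803 and 1784 normalised reads in knockout cells, 865 and 837 in the wild-type rescue and 818 and 943 in the rescue without the NTF2 domain. Its log2 changes were -1.05 (SE 0.09, adjusted p 1.52e-27) and -0.998 (SE 0.10, adjusted p 4.43e-22) according to the authors' deposited tables. KCNQ1OT1 had 469 and 459 reads in knockout cells, 240 and 246 in the wild-type rescue and 260 and 265 in the NTF2-deleted rescue, at log2 changes of -0.89 (SE 0.17, adjusted p 8.57e-07) and -0.78 (SE 0.17, adjusted p 1.22e-05) according to the authors' deposited tables. The knockout libraries of both RNAs lay far above all 4 rescue libraries.

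MALAT1 had 26971 and 30694 reads in knockout cells, 19054 and 19798 in the wild-type rescue and 16695 and 18761 in the NTF2-deleted rescue. Its log2 changes were -0.55 (SE 0.05, adjusted p 1.61e-23) and -0.67 (SE 0.12, adjusted p 8.10e-08) according to the authors' deposited tables. TUG1 changed least among the called members, by -0.21 (SE 0.08, adjusted p 0.0186) and -0.22 (SE 0.08, adjusted p 0.0133) according to the authors' deposited tables. NORAD, with 2414 and 2376 reads in knockout cells, was at -0.04 (95% interval -0.18 to 0.11) and -0.05 (95% interval -0.20 to 0.10) and was not called in the authors' deposited tables. Among all tested genes 19.1% and 18.7% were called lower in these tables. Both comparisons use the same knockout libraries and are not independent.

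Expressed genes as a whole shifted in these tables. The median of genes whose base mean was 100 or more was 0.18 for the wild-type and 0.17 for the NTF2-deleted rescue, and relative to it NORAD was at -0.21 and -0.22 and was called lower (adjusted p 0.0126 and 0.0140 when centred). The other members kept their direction, OIP5-AS1 at -1.22 and -1.16 and TUG1 at -0.38 and -0.39 after centring. Reads in no annotated feature were lower in both rescues, by log2 changes of -0.37 (SE 0.04) and -0.22 (SE 0.05) according to the authors' deposited tables, and their part in the members' change was not tested. Osteosarcoma markers moved too: 3 of 4 tested were called lower in each rescue, and the summed level of the 5-gene list was 32604 to 33038 normalised reads in knockout, 13031 to 13104 in the wild-type rescue and 13245 to 13738 in the NTF2-deleted rescue, with TWIST1 at 0 in the libraries of the first 2 groups. The PTPRC, PECAM1 and EPCAM sum was 129.5 to 129.6, 90.7 to 95.6 and 78.0 to 83.4, with PECAM1 at 0 in knockout and PTPRC at 0 in NTF2-deleted rescue libraries. EPCAM again made up most of it. Its base mean was 93.7, beside 3.03 for PTPRC and 0.961 for PECAM1, in the authors' deposited table of the wild-type rescue over knockout. The part of these markers in the members' changes was not tested.

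Between the experiments, rescue over knockout was lower in both for MALAT1, KCNQ1OT1 and OIP5-AS1. NORAD rose with rescue in the first experiment and was not called in the second, and NEAT1 and TUG1 were called lower only in the tables of the second, a difference between experiments that was not tested. The experiments also differ in how far G3BP1 RNA rose, with a log2 change of -0.69 (SE 0.04) for knockout over rescue in the first and 7.31 for rescue over knockout in the second, in the authors' deposited tables.

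NEAT1 had the largest difference between the rescues with and without the NTF2 domain among the 6 members. Its normalised reads were 8650 and 7510 in knockout cells, 5940 and 6013 in the wild-type rescue and 4412 and 4774 in the NTF2-deleted rescue. Its log2 changes over knockout were -0.41 (SE 0.06, adjusted p 5.91e-10) and -0.79 (SE 0.07, adjusted p 3.43e-27) according to the authors' deposited tables. All 3 groups were separate. The difference between these changes was 0.38 (95% interval 0.19 to 0.56), with an adjusted p of 0.332 over 16210 genes, so it was not called; in that test 0.0185% of genes were called, and it includes the error of the shared knockout libraries. Comparing the rescues directly by limma on the recovered reads gave 0.38 (SE 0.05, adjusted p 2.40e-04) where 0.961% of genes were called. That contrast does not use the knockout means, but limma pools its spread over all groups, knockout libraries included. With arsenite, an added limma comparison of the rescues gave 0.46 (SE 0.05, adjusted p 3.14e-06) for NEAT1 and 0.23 (SE 0.05, adjusted p 0.0341) for MALAT1, where 1.02% of genes were called. The MALAT1 call was lost when any 1 of the 4 treated rescue libraries was left out, at 0.22 to 0.24 with adjusted p by limma from 0.222 to 0.319, and the NEAT1 call was kept in these fits. No other member was called in either limma comparison of the rescues.

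Arsenite raised NEAT1 in all 3 backgrounds. Its normalised reads went from 8650 and 7510 to 11708 and 12319 in knockout cells, from 5940 and 6013 to 8922 and 8892 in the wild-type rescue, and from 4412 and 4774 to 6487 and 6421 in the NTF2-deleted rescue. Treated libraries lay above untreated ones in each background, and libraries of a group were close, except in untreated knockout cells. The log2 changes were 0.58 (SE 0.07, adjusted p 7.56e-14), 0.55 (SE 0.03, adjusted p 2.84e-55) and 0.47 (SE 0.05, adjusted p 8.78e-19) according to the authors' deposited tables. Called higher in these tables were 8.56%, 8.18% and 2.43% of tested genes. Among genes whose base mean was 100 or more, 67 of 10941 had a larger change in the wild-type rescue and 48 of 10593 in the NTF2-deleted rescue, and 420 of 10953 in knockout cells, in the authors' deposited tables. The NEAT1 responses did not differ past the threshold, with differences of -0.02 (95% interval -0.18 to 0.13) for wild-type rescue minus knockout, -0.10 (95% interval -0.28 to 0.07) for NTF2-deleted rescue minus knockout and 0.08 (95% interval -0.04 to 0.20) between the rescues.

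In the order of its levels in the second experiment, NEAT1 was highest in arsenite-treated knockout cells, followed by the treated wild-type rescue, untreated knockout cells, the treated NTF2-deleted rescue, the wild-type rescue and the NTF2-deleted rescue. No 2 neighbours in that order overlapped. The closest pair above knockout, the treated wild-type rescue over untreated knockout, had a log2 change of 0.20 (SE 0.06, adjusted p 0.00236) according to the authors' deposited table, which turned to -0.022 (adjusted p 0.803) when centred on that table's median of 0.22. By limma, which called 37.1% of genes higher there, it was 0.14 (adjusted p 0.0160). It was 0.04 (adjusted p 0.499) without the shallower knockout library, and missed the threshold without either treated wild-type rescue library (adjusted p by limma 0.0708 and 0.0619).

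**Figure D4:**
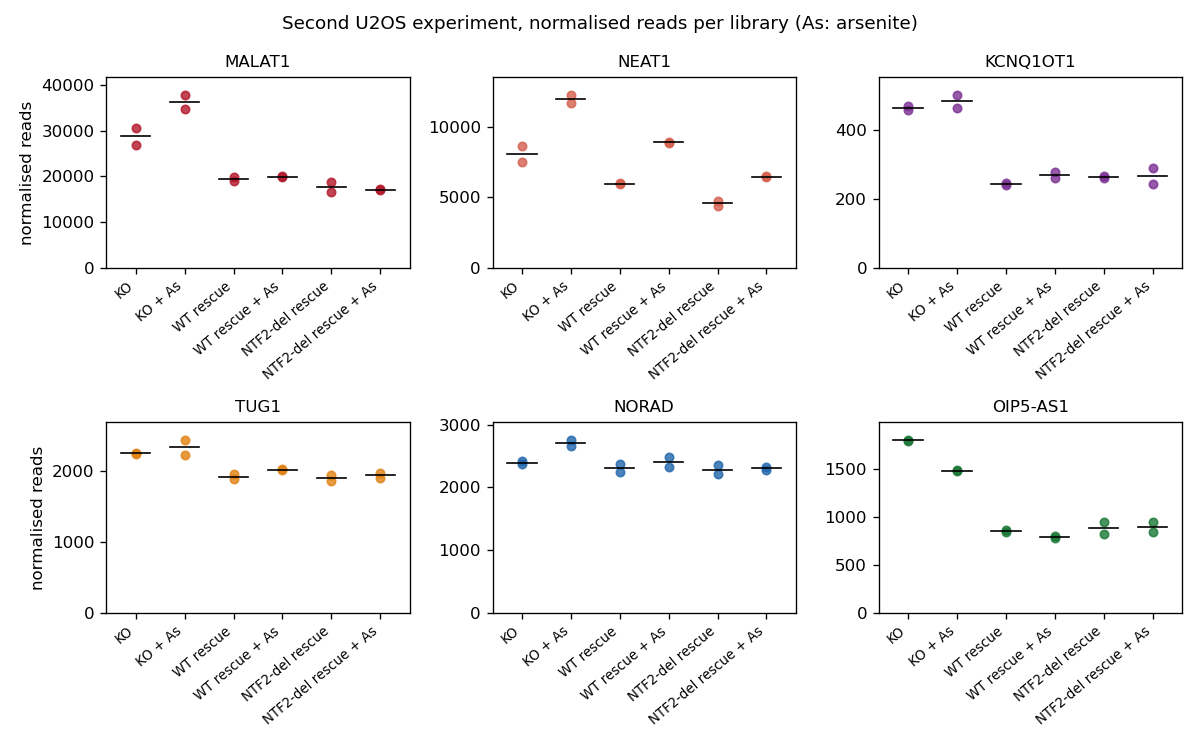
Normalised reads (vertical axes from 0, own scale per RNA) in the 2 libraries of each group of the second experiment; bars are group means. NEAT1 is higher with arsenite in each background, the treated MALAT1 libraries lie well above the untreated ones in knockout cells and just above them in the wild-type rescue, and KCNQ1OT1 and OIP5-AS1 are highest in both knockout groups.

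MALAT1 was raised by arsenite in knockout cells and not measurably in rescued ones. In knockout cells it went from 26971 and 30694 to 34834 and 37980 normalised reads, a log2 change of 0.35 (SE 0.07, adjusted p 3.01e-06) according to the authors' deposited table. In the wild-type rescue, 19054 and 19798 reads became 20114 and 19853, at 0.02 (95% interval -0.04 to 0.09), and in the NTF2-deleted rescue 16695 and 18761 became 16986 and 17183, at -0.05 (95% interval -0.14 to 0.04), in the authors' deposited tables. The response in the wild-type rescue minus that in knockout cells was -0.32 (SE 0.07, adjusted p 6.85e-04), and that in the NTF2-deleted rescue minus knockout was -0.40 (SE 0.08, adjusted p 4.30e-05), in a two-sided normal test of the difference with Benjamini-Hochberg adjustment. Called in these tests were 4.51% and 7.12% of genes. MALAT1 was the 1 member of 6 called in each, and both share the knockout response. Between the rescues no member's difference in response was called, where 0.328% of genes were called; by limma 0 members were called too, and none had an unadjusted p under 0.05 in the difference test. By limma, which called 10.1% and 14.1% of genes in the differences from knockout, that of MALAT1 in the wild-type rescue was -0.30 (adjusted p 0.0106) and lost its call in 4 of 8 fits that left out 1 library, with adjusted p from 0.0519 to 0.0760, namely without the deeper untreated knockout, the shallower treated knockout, the shallower wild-type rescue or the shallower treated wild-type rescue library. The NTF2-deleted difference kept its call in all 8 such fits.

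OIP5-AS1 fell with arsenite in knockout cells, from 1803 and 1784 to 1472 and 1482 reads, at -0.26 (SE 0.09, adjusted p 0.0182) according to the authors' deposited table, and was called in neither rescue, at -0.13 (SE 0.07) and 0.02 (SE 0.10) according to the authors' deposited tables. Its response differed from knockout by 0.28 (95% interval 0.02 to 0.53, adjusted p 0.245) in the NTF2-deleted rescue. By limma it was 0.30 (adjusted p 0.0393), ranged from 0.20 to 0.40 with 1 library left out (adjusted p up to 0.238) and kept its call in 2 of 8 such fits, those without the shallower treated or the shallower untreated NTF2-deleted rescue library. NORAD in knockout cells went from 2414 and 2376 to 2762 and 2652 reads, at 0.19 (SE 0.08, adjusted p 0.0664) according to the authors' deposited table and 0.18 (adjusted p 0.0105) by limma, which called 35.1% of genes there. That limma call was lost without the shallower untreated knockout library (adjusted p 0.0527) and without the deeper treated one (adjusted p 0.0740). KCNQ1OT1 and TUG1 were not called in any background, with changes from 0.01 to 0.11 in the authors' deposited tables. Counted together, arsenite changed 3 of 6 members in knockout cells (2 higher, 1 lower) and 1 of 6 in each rescue, in the authors' deposited tables. In knockout cells 10.9% of tested genes were called lower. Reads in no feature changed by 0.05 (SE 0.05) in knockout cells, -0.20 (SE 0.01) in the wild-type rescue and -0.19 (SE 0.03) in the NTF2-deleted rescue in the authors' deposited tables, and their part was not tested. With arsenite the summed osteosarcoma markers ranged from 22411 to 22842 normalised reads in knockout cells, from 9374 to 9476 in the wild-type rescue and from 10277 to 10457 in the NTF2-deleted rescue, below the untreated libraries in each. Of 3 tested, only SPARC was called lower, at -0.90, -0.69 and -0.50 in the authors' deposited tables. COL1A1 was at 0.07, -0.03 and -0.08 there, and neither it nor RUNX2 was called. The PTPRC, PECAM1 and EPCAM sum with arsenite was 50.1 to 72.4, 44.0 to 55.6 and 73.4 to 74.8, none at 0 in both libraries of a treated group, and EPCAM was called lower at -0.80 in knockout cells and -0.63 in the wild-type rescue in the authors' deposited tables. The part of these markers in the members' changes was not tested.

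**Figure D5:**
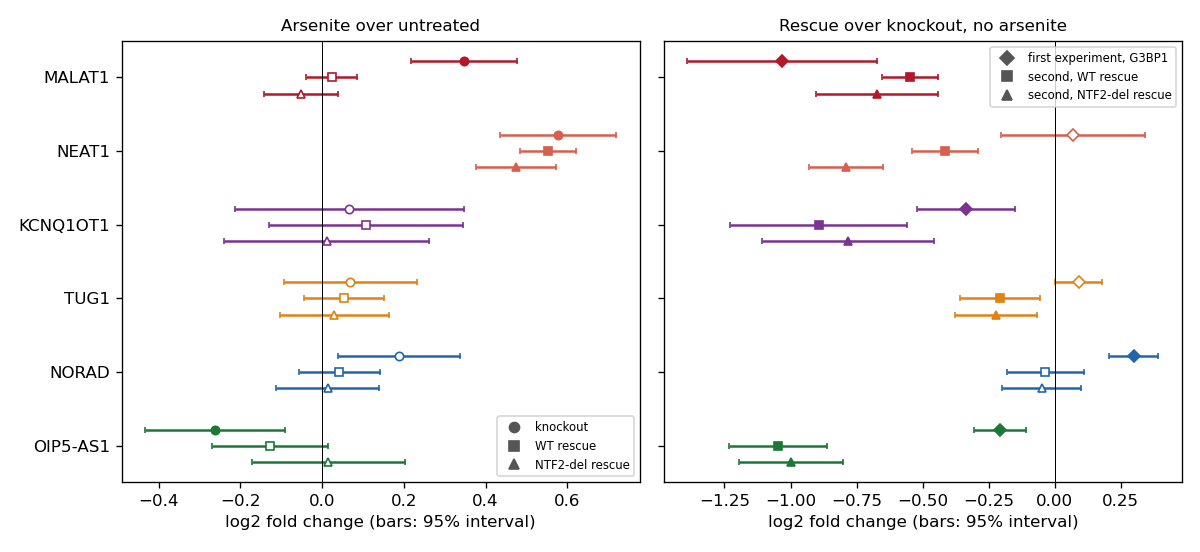
Log2 fold changes with 95% intervals from the authors' deposited tables, arsenite over untreated cells (left) and rescue over knockout cells without arsenite (right, with the sign of the first experiment's table turned); filled symbols passed an adjusted p of 0.05. On the left NEAT1 lies between 0.47 and 0.58 in all 3 backgrounds and MALAT1 passed the threshold in knockout cells and in neither rescue; on the right OIP5-AS1, KCNQ1OT1 and MALAT1 are below 0 in all 3 rescues.

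With arsenite in both groups, all 6 members were lower in rescued than in knockout cells by limma on the recovered reads, a comparison added after the data were seen. Log2 changes for the wild-type and NTF2-deleted rescue were -0.86 and -1.09 for MALAT1, -0.43 and -0.90 for NEAT1, -0.84 and -0.86 for KCNQ1OT1, -0.91 and -0.73 for OIP5-AS1, -0.21 and -0.27 for TUG1 and -0.17 and -0.23 for NORAD. The largest adjusted p of these was 0.00521, for NORAD in the wild-type rescue, and 31.6% and 32.5% of genes were called lower. Without the shallower treated wild-type rescue library NORAD was at -0.13 (adjusted p by limma 0.113) and was not called. Treated rescues over untreated knockout cells, as the authors compared them, gave 3 members lower and NEAT1 higher for the wild-type rescue, and 5 lower for the NTF2-deleted rescue, beside 19.8% and 19.6% of tested genes called lower and 25.1% called higher in the first, in the authors' deposited tables.

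Levels between the RNAs were compared only per kilobase of annotated span, which overstates the length of spliced RNAs. Averaged over the 3 groups of the first experiment, MALAT1 was highest on this scale, at 9383 normalised reads per kb, followed by NORAD at 1801, NEAT1 at 1004, TUG1 at 952, OIP5-AS1 at 216 and KCNQ1OT1 at 16.3. Averages over the 6 groups of the second experiment had the same order, from 2648 for MALAT1 to 3.61 for KCNQ1OT1. Within groups the order turned for neighbouring RNAs in 2 cases, with TUG1 at 1119 and NEAT1 at 1105 reads per kb in wild-type cells, and NEAT1 at 528 and NORAD at 507 in treated knockout cells. These differences between RNAs were not tested.

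Proteins and RNAs that work with the members were taken from lists chosen with earlier results of these data known. Of 16 paraspeckle proteins, which assemble on NEAT1, 8 were called higher and 0 lower in the wild-type rescue and 12 higher and 0 lower in the NTF2-deleted rescue over knockout, in the authors' deposited tables, where 23% and 22.8% of all tested genes were called higher. The list's medians were 0.29 and 0.28, beside -0.03 and -0.02 for all tested genes and 0.18 and 0.17 for genes whose base mean was 100 or more. DAZAP1 was highest, at 0.60 and 0.70 in the authors' deposited tables, in the comparisons in which NEAT1 was lower. With arsenite in knockout cells 2 of 16 were called higher and 5 lower, beside 8.56% and 10.9% of all tested genes. SFPQ was at 0.17 and HNRNPH3 at -0.71 there. With arsenite in the wild-type rescue 1 was called, higher, and in the NTF2-deleted rescue 0. Of all tested genes 8.18% and 2.43% were called higher in these 2 backgrounds, in the authors' deposited tables. The NORAD partner PUM2 was at -0.20 in knockout over wild type according to the authors' deposited table, and was also called lower in RIP. ELAVL1, a binder of AU-rich RNA and of OIP5-AS1, was at 0.75 in RIP and 0.05 in knockout over wild type, the latter not called, in the authors' deposited tables.

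Of 6 other cytoplasmic RNAs tested in the rescues over knockout, 5 were called higher and 0 lower, from 0.89 for DANCR to 1.17 for CYTOR in the wild-type rescue, in the authors' deposited tables, beside the same 23% and 22.8% of all tested genes. With arsenite in knockout cells 1 of 6 was called higher, CYTOR at 1.30, and 2 lower, in the authors' deposited table. Beside these, 8.56% of all tested genes were called higher and 10.9% lower. With arsenite, GAS5 and ZFAS1, both snoRNA hosts, fell in all 3 backgrounds, by changes of -0.29 to -0.45 and -0.68 to -0.89 in the authors' deposited tables. DANCR, also a snoRNA host, was not called in any background. It was at -0.16 in knockout cells, -0.005 in the wild-type rescue and -0.04 in the NTF2-deleted rescue in the authors' deposited tables. Of 7 other nuclear RNAs tested, 3 were called lower and 1 higher in each rescue over knockout. Of all tested genes 19.1% and 18.7% were called lower there. MIAT was at -3.48 and HOTAIR at -2.41 in the wild-type rescue in the authors' deposited tables. Among neighbours in the imprinted KCNQ1 region, CDKN1C was at -2.41 and PHLDA2 at 1.85 in the wild-type rescue, beside -0.89 for KCNQ1OT1, in the authors' deposited tables. LTBP3, in the MALAT1 and NEAT1 region, was at -2.15 in the authors' deposited table of the wild-type rescue.

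Genes most like each member were ranked by Pearson's r of their log2 changes over 8 of the tables, among 8872 genes, as a description, since tables share libraries and the RIP value dominates. KDM5A, ZFHX3 and PTAR1 were nearest to KCNQ1OT1 (0.9996, 0.9988 and 0.9988), PLEKHH1, LIMD1 and IGF1R to MALAT1 (0.997, 0.995 and 0.994), and KLHDC10, KMT2E and DENND1B to NEAT1 (0.997, 0.997 and 0.992). TUG1 was nearest to ZNF638, PLCG1 and FANCM (0.9989, 0.9988 and 0.9986), NORAD to GATA4, GNE and FN1 (0.982, 0.981 and 0.98), and OIP5-AS1 to KIF5A, MEGF9 and MSI2 (0.992, 0.991 and 0.99). Between members r was highest for KCNQ1OT1 with TUG1, at 0.979, and lowest for NORAD with OIP5-AS1, at 0.0852, so the 2 cytoplasmic RNAs had the least similar profiles of the set.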

How the data were processed

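The files hold 11 tables of comparisons that the authors made with DESeq2 2.11.40.6 after STAR alignment (2.7.0f for RIP-seq and the first experiment), per the submitters' processing notes; the build, the annotation and the use of strand are not given in the sources used here. TRIzol RNA was selected for poly-A and made into directional libraries, per the labels' protocols. The authors' base mean is a signal, namely reads per gene divided by size factors and averaged over the libraries of a table. The deposited log2 fold changes give the first group over the second, shrunk toward 0 as the values themselves show (prior width worked out here as 0.278 to 2.06). The deposited Wald score, p-value and adjusted p-value are the authors'. The 4 summary lines per table were left out of all gene counts.

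Whole reads per library were recovered here from the base means of tables that share libraries, for 38465 of 38466 genes in the first and 38908 of 38909 in the second experiment (G3BP1 in the second was not recovered). They were divided by size factors common to an experiment. The 2 libraries of a group differed by more than read sampling gives, with a mean squared standardised difference of 1.71 to 4.93, and each counts as 1 replicate. Log2 ratios of recovered group means and deposited values with the shrinkage undone differed by at most 0.0639 in 60 pairs.

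The call was the authors' adjusted p-value under 0.05. A difference between tables was divided by the root of the summed squared standard errors and tested two-sided against a normal distribution, with Benjamini-Hochberg adjustment over genes whose base mean was 10 or more in both. The subtracted changes were shrunk unequally. Prior widths were 0.637 for arsenite in knockout cells, 0.371 in the wild-type rescue and 0.278 in the NTF2-deleted rescue. Equal responses can therefore differ in deposited value, and the share of calls due to this was not tested. With the shrinkage undone, the arsenite responses of MALAT1 were 0.35, 0.02 and -0.05 in the same order. limma 3.58.1 (trend, log2 of normalised reads + 1, mean of 10 or more, all groups of an experiment in 1 fit) was added after the data were seen. These steps were tested on simulated data. Of genes shifted by a log2 change of 1, the difference test recovered 71% and 78.5% for the differences of response from knockout. Between the rescues it recovered 96% for the response and 46% for the untreated levels. limma recovered 29.3% and 47.5% of genes changed 1.5-fold, for knockout over wild type and for arsenite in knockout cells. Its false calls were 4.63% and 7.25%. The simulated differences had independent errors and no shrinkage, although the tables of a rescue over knockout share the knockout libraries. The simulated reads for limma had the same spread beyond read sampling in all genes. These rates therefore do not give the power for the members, whose uncalled changes may have been missed. Alternatives were other adjustment sets, centring, stricter calls, dividing Wald scores by their robust spread, and leaving out each library. The members and lists were chosen with earlier results of these data known. Named genes were the members, G3BP1 and G3BP2, partners, markers, list genes with the largest and smallest called changes, and the 3 genes most correlated with each member. The 48 other libraries of the series are not analysed here. Some genes of the lists are not reported here.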

Additional observations from a re-analysis of the deposited data

Results flagged for a closer look

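The arsenite response of MALAT1 differed between backgrounds. The log2 change in the wild-type rescue minus that in knockout cells was -0.32, past the threshold of a two-sided normal test of the difference. Its change with arsenite was 0.35 in knockout cells and 0.02 in the rescue in the authors' deposited tables. The log2 change in the NTF2-deleted rescue minus that in knockout cells was -0.40, past the threshold of the same test, with -0.05 in that rescue in the authors' deposited table. The knockout response enters both differences, and MALAT1 was the only one of the 6 members called in either. Groups had 2 or 3 libraries, too few to look for single libraries far from the others.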

How the results depend on the processing

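Counts of members called kept within 1.5 times the reported count in 141 recomputations and moved further in 40. Dividing the Wald scores by their robust spread gave 0 members for RIP, for the 3 comparisons of the first experiment and for the 4 comparisons of a rescue with untreated knockout cells, and 1 for arsenite in knockout cells. Requiring an absolute change of 1 gave 0 for knockout over wild type, wild type over rescue, all 3 arsenite responses, both comparisons of the NTF2-deleted rescue with knockout and both differences of response, and 1 for knockout over rescue and for both comparisons of the wild-type rescue with knockout. For knockout over wild type, adjusting over genes whose base mean was 100 or more gave 4 and limma gave 5 (3 to 4 with 1 library left out). limma gave 2 for the response of the NTF2-deleted rescue minus knockout (1 to 2 with 1 library left out), and 1 for the rescues compared directly (1 to 1 with 1 library left out). For the response of the wild-type rescue minus knockout, limma with 1 library left out gave 0 to 1. Centring reversed NEAT1 in the treated wild-type rescue over untreated knockout, to -0.022. Of the recomputed values for single members, 1029 kept direction and call, 81 lost the call, 36 gained it, 5 moved without a test and 1 reversed. The cause was not tested, except that limma pools the spread over genes and groups, and with 1 library left out assumes that the lone library varies like the others. No paired analysis was possible because neither the deposited tables nor the recovered libraries carry replicate numbers. RIP reads per library were not recovered, so leaving out 1 RIP library was not run.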
